A study of Mus musculus with 15 samples.

Results

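Hox genes encode homeodomain transcription factors that give cells along the body and limb axes their regional identity, and the measurements below describe all of them that the array could report on in mouse femur. A probe was taken as a Hox probe where its RefSeq accession mapped to a mouse gene named Hoxa, Hoxb, Hoxc or Hoxd followed by a number, whatever its value. This gave 46 probes of 55681 on the array, 28026 of which could be matched to a gene symbol. The 46 probes stood for 41 genes, namely all 39 protein-coding Hox genes that RefSeq lists and the antisense transcripts Hoxa11os and Hoxd3os1. The femora came from male C57BL/6J mice, labelled as 9 weeks old, in 4 groups that all lived in the same type of flight hardware. The study's text gives 9 weeks as about the age at surgery, shortly before launch, and the femora were taken about 4 weeks later. FLT-Sham (4 arrays, replicates 4, 6, 8 and 9) and FLT-Surgery (3 arrays, replicates 1, 3 and 5) flew on the International Space Station for about 4 weeks. G-Sham (4 arrays, replicates 1, 3, 4 and 5) and G-Surgery (4 arrays, replicates 1, 3, 4 and 5) stayed on the ground and ran a few days later than the flight groups. Surgery removed 2 mm of the femoral shaft and filled the gap with a scaffold wrapped in a collagen sponge soaked in saline, so no growth factor was given. Sham mice are labelled as unoperated, while the study's text speaks of sham surgery, and the same stretch of shaft was taken from them, although the labels call every sample callus. The whole frozen piece was milled, so bone, marrow, vessels and attached muscle entered the same RNA, and fewer cells of a type cannot be told apart from less RNA per cell. Each array compared femur RNA, labelled with Cy5, with a commercial pool of RNA from mouse cell lines, labelled with Cy3 (the universal reference). No dye was swapped, so a ratio to the reference is open to dye bias, whereas differences between groups share the same dye orientation.

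In vertebrates the Hox genes lie in 4 clusters, and their order along the chromosome follows their order of expression from head to tail. Genes at the same place in different clusters are paralogues and share a number from 1 to 13. In the developing limb the paralogues with the highest numbers act in turn from the thigh or upper arm to the digits, with group 10 patterning the femur, group 11 the lower leg and forearm and group 13 the hand and foot. Several Hox genes, above all of the Hoxa and Hoxb clusters, also act in blood stem cells and their progeny, which fill the marrow of the femur. On GRCm38.p6, the mouse assembly of the RefSeq table used here, the Hoxa genes with a probe (12 genes, 15 probes) span chr6:52155367-52260880, the Hoxb genes (10 genes, 11 probes) chr11:96194316-96368254, the Hoxc genes (9 genes, 9 probes) chr15:102921131-103036856 and the Hoxd genes (10 genes, 11 probes) chr2:74668225-74765142.

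RefSeq promoter windows, the 250 bases before a listed transcription start, were at hand for 24 of the 41 genes. Shown here is 1 window from each cluster, for genes whose values are described below. Hoxa9 and Hoxc4 were above background on most arrays and Hoxd11 on 9. Hoxb4 passed the cut-off in the test of whether spaceflight acted differently in defect and sham, and between no pair of groups. Each window is given 5′ to 3′ on the strand of the gene, and the capitals mark the motif letters that were found on either strand.
Hoxa9, chr6:52227371-52227620, minus strand: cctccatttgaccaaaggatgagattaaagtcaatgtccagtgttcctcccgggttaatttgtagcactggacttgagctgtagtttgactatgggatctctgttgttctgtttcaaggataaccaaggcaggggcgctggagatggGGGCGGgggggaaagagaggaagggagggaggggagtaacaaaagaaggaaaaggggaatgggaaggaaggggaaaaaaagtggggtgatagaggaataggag
Hoxb4, chr11:96318017-96318266, plus strand: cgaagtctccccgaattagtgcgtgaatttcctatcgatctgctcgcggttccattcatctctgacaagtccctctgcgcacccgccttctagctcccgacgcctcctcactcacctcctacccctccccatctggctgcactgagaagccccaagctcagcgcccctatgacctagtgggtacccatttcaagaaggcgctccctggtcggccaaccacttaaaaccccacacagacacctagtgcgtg
Hoxc4, chr15:103034145-103034394, plus strand: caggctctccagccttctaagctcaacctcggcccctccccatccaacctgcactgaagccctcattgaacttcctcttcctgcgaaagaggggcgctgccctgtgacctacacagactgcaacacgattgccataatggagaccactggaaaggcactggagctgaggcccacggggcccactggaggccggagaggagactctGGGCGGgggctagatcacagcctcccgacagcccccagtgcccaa
Hoxd11, chr2:74682073-74682322, plus strand: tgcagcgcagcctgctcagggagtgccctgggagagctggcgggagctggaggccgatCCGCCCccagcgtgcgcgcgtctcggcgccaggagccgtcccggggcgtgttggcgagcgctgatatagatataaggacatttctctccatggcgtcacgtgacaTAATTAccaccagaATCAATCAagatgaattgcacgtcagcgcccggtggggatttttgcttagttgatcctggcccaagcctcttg
The capitals in Hoxa9, Hoxc4 and, on the reverse strand, near the start of Hoxd11 are a GC box, GGGCGG, which 10 of the 24 Hox genes and 32.7% of all 32851 mouse promoter windows carried. Hoxd11 also held the homeodomain core TAATTA, found in 4.84% of all windows, and, on the reverse strand, TGATTNAT, a composite site for PBX and HOX proteins found in 2.82%. Among the 24 Hox genes the core was found only in Hoxd11 and the composite only in Hoxa2 and Hoxd11. The CCAAT box was in 14 of the 24 genes, against 33.8% of all windows, and the TATA box TATAAA in 5, against 12.4%. The Hoxb4 window had none of the 5 motifs, and a match or its absence describes these letters only. The windows were rich in cytosine and guanine in Hoxc4 (62.0%), Hoxd11 (60.4%) and Hoxb4 (58.0%) and closer to the median of all windows (52.4%) in Hoxa9 (49.6%). RefSeq lists a second window for Hoxd11, chr2:74679308-74679557, which had 44.8% and, of the 5 motifs, TAATTA alone.

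Most Hox probes were dim in femur RNA and clear in the reference. Over the 15 arrays, 179 of 690 Hox measurements (25.9%) were well above background in Cy5, against 29.5% over all probes. In the Cy3 channel 523 of 690 (75.8%) were above background, against 56.8% over all probes. The study describes its femur RNA as of sub-optimal quality, possibly lowered further by a freeze and thaw, and as comparable between flight and ground. The part of RNA quality in the detection counts was not tested. Of the 39 coding genes, 29 were above background in femur RNA on at least 1 array, 18 on at least 3, 9 on at least 8 and 2 on all 15, whereas 27 were above background in the reference on all 15. The 2 genes above background in every femur were Hoxc6, which acts in the thorax and forelimb region, and Hoxc13, known for hair and nail formation. Hoxa7 and Hoxa9, both expressed in blood progenitors, followed with 14 arrays each, then Hoxc4 (12), Hoxc9 (11), Hoxb7 (9), Hoxd11 (9) and Hoxa3 (8).

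The Hoxc cluster was the one most often seen. On at least 3 arrays 7 of 9 Hoxc genes were above background, against 6 of 11 Hoxa, 4 of 10 Hoxb and 1 of 9 Hoxd genes. On at least 8 arrays the counts were 4 Hoxc genes, 3 Hoxa genes, 1 Hoxb gene and 1 Hoxd gene. By position, 3 of 12 genes of paralogue groups 1 to 4, 7 of 11 of groups 5 to 8 and 8 of 16 of groups 9 to 13 reached 3 arrays. These are counts of detection by probes of unequal brightness, with no test, and the level of one probe was not set against that of another.

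**Figure D1:**
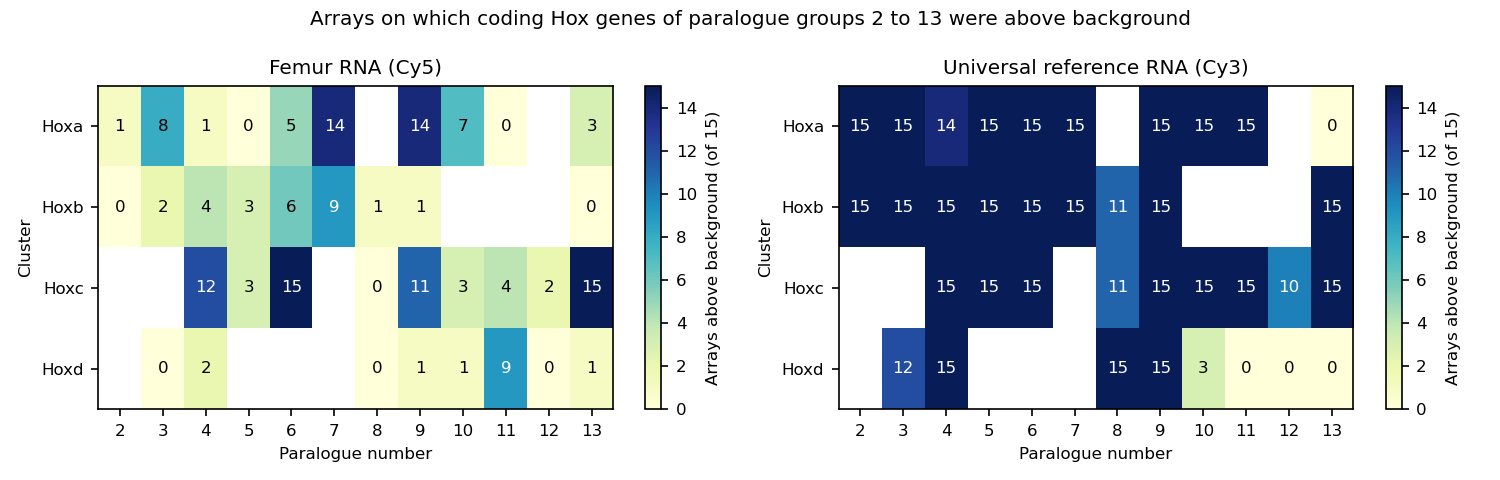
Number of the 15 arrays on which coding Hox genes of paralogue groups 2 to 13 were well above background, by cluster (rows) and paralogue number (columns), in femur RNA (left) and in the universal reference (right); white squares are genes that do not exist in the mouse. Femur counts reach 15 for Hoxc6 and Hoxc13 and stay at 2 or below for all Hoxd genes but Hoxd11, while most reference squares are at 15.

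The paralogues that pattern the thigh were above background on 7 arrays at most. Chosen for this description after their values were seen, Hoxa10 was above background on 7 arrays, Hoxc10 on 3 and Hoxd10 on 1. Of group 11, which patterns the lower leg and forearm, Hoxa11 was above background in femur RNA on no array although it was in the reference on all 15, and its log2 ratio ran from -4.25 to -2.79 (median -3.49). Its antisense transcript Hoxa11os was above background on 11 arrays, with ratios from -2.57 to -0.17. Hoxc11, a gene of the hindlimb and tail region, reached 4 arrays and Hoxd11 9. Of group 13, the genes of the digits and the tail end, Hoxc13 was above background on all 15 arrays, Hoxa13 on 3, Hoxd13 on 1 and Hoxb13 on none. Hoxa13 and Hoxd11 were below background in the reference on all 15 arrays, so their ratios have no measured denominator and the size of any difference in them is limited accordingly.

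Hoxa5, Hoxa11, Hoxb2, Hoxb13 and Hoxd8 were above background in the reference on all 15 arrays and in femur RNA on none. The other 5 coding genes never seen in femur RNA were Hoxb1, Hoxc8, Hoxd1, Hoxd3 and Hoxd12, of which Hoxb1, Hoxd1 and Hoxd12 were not seen in the reference either. The second antisense transcript, Hoxd3os1, was seen in no femur and in the reference on all 15 arrays. Counted by probe, 20 of the 46 were above background on at least 3 arrays, 11 on 1 or 2 and 15 on none. Of the 20, the median ratio over the 15 arrays was above 0 in 8 and below 0 in 12.

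The probes of a gene did not always report alike. For genes with a second probe, the brighter and the dimmer probe were above background on 14 and 9 arrays for Hoxa9, on 9 and 0 for Hoxd11, on 3 and 0 for Hoxa13 and on 2 and 0 for Hoxb3. Unless said otherwise a gene is given by its brighter probe.

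The number of Hox probes above background differed from array to array, and was high where many of all probes were above background. It was 6, 13, 14 and 9 in G-Sham (replicates 1, 3, 4 and 5), 18, 21, 8 and 17 in FLT-Sham (replicates 4, 6, 8 and 9), 20, 12, 8 and 10 in G-Surgery (replicates 1, 3, 4 and 5) and 10, 6 and 7 in FLT-Surgery (replicates 1, 3 and 5). All groups overlapped, and no FLT-Surgery array exceeded 10. The share of all probes above background ran from 23.1% to 32.8% in G-Sham, from 26.6% to 38.5% in FLT-Sham, from 25.7% to 37.2% in G-Surgery and from 22.4% to 25.6% in FLT-Surgery. FLT-Sham replicate 8 stood apart from its group with 8 Hox probes and 26.6% of all probes, and the Hox differences named for this group are also given without it.

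**Figure D2:**
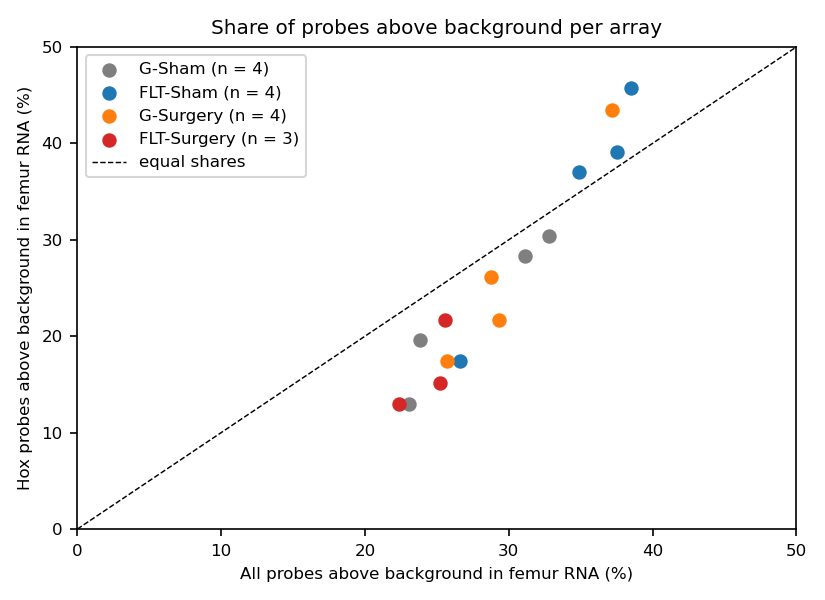
Each point is 1 array, with the share of all probes well above background in femur RNA on the horizontal axis (%) and the share of the 46 Hox probes on the vertical axis (%), coloured by group; the dashed line marks equal shares. Hox detection runs from 13% to 45.7% and is high where overall detection is high, with 3 FLT-Sham arrays and G-Surgery replicate 1 above the line.

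Markers of cells other than bone differed between the same arrays. The 12 skeletal muscle markers had at least 10 members above background on every array, and their summed Cy5 signal was 8040210, 8802767, 909617 and 4931462 in FLT-Sham (replicates 4, 6, 8 and 9). It was 598479 to 2964374 in G-Sham, 471890 to 2200814 in G-Surgery and 1769818, 141982 and 181093 in FLT-Surgery (replicates 1, 3 and 5). The highest sums were thus in FLT-Sham without replicate 8 and the lowest in FLT-Surgery without replicate 1. The 8 adipocyte markers, of which Lep was never above background, summed to 53148, 52375, 9956 and 47754 in FLT-Sham, 1036 to 11118 in G-Sham, 2706 to 10593 in G-Surgery and 800 to 8056 in FLT-Surgery. The 8 erythroid markers, without Klf1 on any array, summed to 239600, 183261, 45364 and 211625 in FLT-Sham, 17682 to 52229 in G-Sham, 2515 to 37135 in G-Surgery and 3149 to 29809 in FLT-Surgery. In each of these 3 lists replicate 8 was the lowest of the FLT-Sham arrays. The 10 neutrophil markers, all seen on some array, summed to 148387 to 394411 in FLT-Sham, 80886 to 205809 in G-Sham, 54414 to 141682 in G-Surgery and 15778 to 109890 in FLT-Surgery. The 10 markers of blood stem and progenitor cells, of which Mecom was never above background, summed to 14617 to 23330 in FLT-Sham, 10329 to 14042 in G-Sham, 17882 to 31426 in G-Surgery and 13191 to 20424 in FLT-Surgery. Of the 8 endothelial markers, Tek was never seen, and 2 to 7 were above background in FLT-Sham, 2 to 3 in G-Sham, 2 to 5 in G-Surgery and 2 in FLT-Surgery. The endothelial sums were 14648 to 15990 in FLT-Sham, 5214 to 15535 in G-Sham, 12021 to 25003 in G-Surgery and 17006 to 57651 in FLT-Surgery. Of the 12 bone markers, Sp7, Phex, Dmp1 and Sost were never above background. Col1a1, Col1a2 and Bglap2 were above it on all 15 arrays, Ibsp on 13, Mepe on 11, Bglap on 8, Alpl on 7 and Runx2 on 6. Of the 9 cartilage markers, Sox9, Col10a1, Matn1, Matn3 and Hapln1 were never above background. Acan was above it on 12 arrays, Comp on 11, Col2a1 on 8 and Col9a1 on 3. The part of these cells in the Hox values was not tested.

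**Figure D3:**
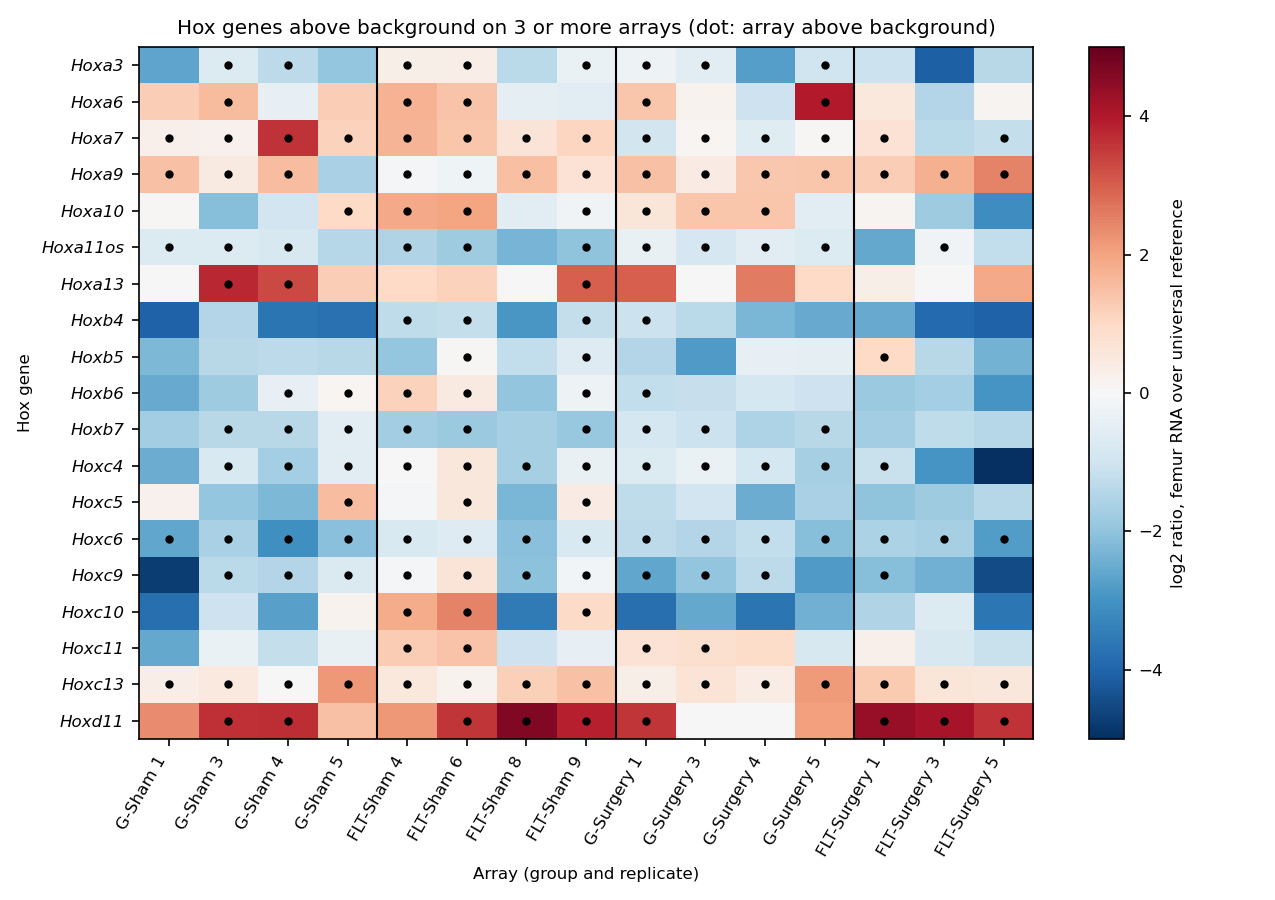
log2 ratio of femur RNA to the universal reference (colour, ending at 5 in either direction) for the 19 Hox genes above background on at least 3 arrays (rows) in each of the 15 arrays (columns, by group and replicate), with a dot where the femur signal was well above background. Hoxc4, Hoxc6, Hoxc9, Hoxc10, Hoxb4 and Hoxb6 are higher in FLT-Sham replicates 4, 6 and 9 than in replicate 8.

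Groups were compared with limma on log2 ratios, over probes whose femur signal was well above background on 3 or more arrays of the comparison. A probe passed the cut-off where groups differed 2-fold or more with an unadjusted p no higher than 0.01. Adjusted p-values are Benjamini-Hochberg values over all probes tested. The 4 comparisons of pairs of groups share arrays with each other, so they are not independent of each other. A probe that is seen in 1 of its groups only could enter a comparison through that group alone, so the counts of tested members below describe them and are no support for a direction.

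FLT-Sham against G-Sham asks what spaceflight changed in the femur without a defect. No Hox probe passed the cut-off, of 18 tested, against 2.0% of all 19737 probes tested (1.79% higher and 0.208% lower in FLT-Sham). Of the 18, 12 had a higher mean in FLT-Sham, with a median log2 difference of 0.51, beside 61.1% and 0.24 over all probes tested. At an unadjusted p of at most 0.05 there were 5 Hox probes, against 9.57% of all probes, and the smallest adjusted p of a Hox probe was 0.493.

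Hoxc6 was above background on all 8 arrays of this comparison. Its log2 ratios were -2.61, -1.64, -3.07 and -2.10 in G-Sham (replicates 1, 3, 4 and 5) and -0.77, -0.64, -2.08 and -0.78 in FLT-Sham (replicates 4, 6, 8 and 9). The groups overlapped through FLT-Sham replicate 8 alone, and the log2 difference was 1.28 (SE 0.46, limma adjusted p = 0.503). Without FLT-Sham replicate 8 it was 1.62 and passed the cut-off. Hoxc9, which shapes the rib-bearing part of the trunk, gave -4.76, -1.36, -1.45 and -0.74 in G-Sham and -0.08, 0.65, -2.04 and -0.15 in FLT-Sham. Again only FLT-Sham replicate 8 lay within the range of the ground arrays, and the difference of 1.67 (SE 0.93, limma adjusted p = 0.524) did not reach an unadjusted p of 0.05. Hoxc4, a gene of the neck and upper trunk, gave -2.49, -0.76, -1.70 and -0.51 in G-Sham and 0.03, 0.57, -1.67 and -0.37 in FLT-Sham. Its difference was 1.01 (SE 0.61, limma adjusted p = 0.532), with the same FLT-Sham array inside the ground range. Without that array Hoxc9 differed by 2.22 and Hoxc4 by 1.44, and neither passed the cut-off. Without G-Sham replicate 1, the lowest ground array in both, Hoxc9 differed by 0.78 and Hoxc4 by 0.63.

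Hoxb4, known for its part in the expansion of blood stem cells, was above background in FLT-Sham replicates 4, 6 and 9 and on no G-Sham array. Its ratios were -4.06, -1.45, -3.65 and -3.75 in G-Sham and -1.28, -1.20, -2.92 and -1.19 in FLT-Sham. The groups overlapped, with G-Sham replicate 3 close to the flight arrays, and the difference was 1.58 (SE 0.66, limma adjusted p = 0.515). Measured against the detection limit of the ground arrays the femur signal was at least 1.44-fold higher in FLT-Sham. Without G-Sham replicate 3 the difference was 2.17 and passed the cut-off, and without FLT-Sham replicate 8 it was 2.0 and did not. As Hoxb4 entered this comparison through FLT-Sham alone, these differences have no measured low side and are no support for a direction.

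Hoxc10, a gene of the hindlimb chosen after its values were seen, was above background on 3 arrays of the series, all FLT-Sham. Its Cy5 signals were 1322, 1971, 42.5 and 792 in FLT-Sham (replicates 4, 6, 8 and 9) and 52.3, 172, 95.8 and 268 in G-Sham. Replicate 8 was below every ground array and the other flight arrays above all of them. The log2 difference in ratio was 2.27 (SE 1.37, limma adjusted p = 0.532), and against the detection limit of the ground arrays the signal was at least 2.60-fold higher in FLT-Sham. Hoxc10 entered this comparison through FLT-Sham alone, so its ratio differences have no measured low side and are no support for a direction. Without FLT-Sham replicate 8 the difference was 3.60 and passed the cut-off (limma adjusted p = 0.0749). Leaving out this array brought 3 Hox probes past the cut-off, Hoxc10, Hoxc6 and Hoxa3 (1.75), while the share of all probes past it went from 2.0% to 10.7%.

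Hoxa11os was lower in FLT-Sham and the only Hox probe of this comparison whose groups did not overlap, as in 0.958% of all probes. None lay wholly higher in FLT-Sham, as 3.64% of all probes did. Its ratios were -0.67, -0.70, -0.82 and -1.42 in G-Sham and -1.51, -1.77, -2.32 and -2.01 in FLT-Sham. All 4 flight arrays lay below all 4 ground arrays, by a log2 difference of -1.0 (SE 0.33, limma adjusted p = 0.493). Without G-Sham replicate 5 it was -1.18 and passed the cut-off, and without FLT-Sham replicate 8 it was -0.86 and did not. The second Hoxa9 probe gave a difference of -1.56 (SE 0.68, limma adjusted p = 0.515) where the brighter probe gave 0.03 (SE 0.75), so the 2 probes of this gene did not report the same difference. The remaining named genes differed by less than the spread between arrays: Hoxa7 by -0.10 (SE 0.74), Hoxc13 by 0.10 (SE 0.54) and Hoxd11 by 0.76 (SE 0.67). Without FLT-Sham replicate 8 the brighter Hoxa9 probe differed by -0.31, the second by -1.50, Hoxa7 by 0.08, Hoxc13 by -0.02 and Hoxd11 by 0.41. The sign for Hoxa9, Hoxc13 and Hoxd11 also turned under other scalings.

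In the same comparison 7 of 7 tested adipocyte markers had a higher mean in FLT-Sham (median log2 difference 2.71, 2 past the cut-off), 8 of 12 muscle markers (0.59), 4 of 5 erythroid markers (1.83), 5 of 8 markers of blood stem and progenitor cells (0.22) and 6 of 8 bone cell markers (0.86, 1 past). So had 4 of 6 endothelial markers (3.14), 7 of 9 neutrophil markers (1.79) and 3 of 3 cartilage markers (1.35), and the part of these cells in the Hox values was not tested. Within slides, where each value rests on few arrays, Hoxc6 differed by 0.87 (1 array against 1) and 1.19 (3 against 2). For Hoxa11os it was -0.81 and -0.99. For Hoxb4 it was 0.17 and 2.13, so the size of that difference rested on the second slide.

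**Figure D4:**
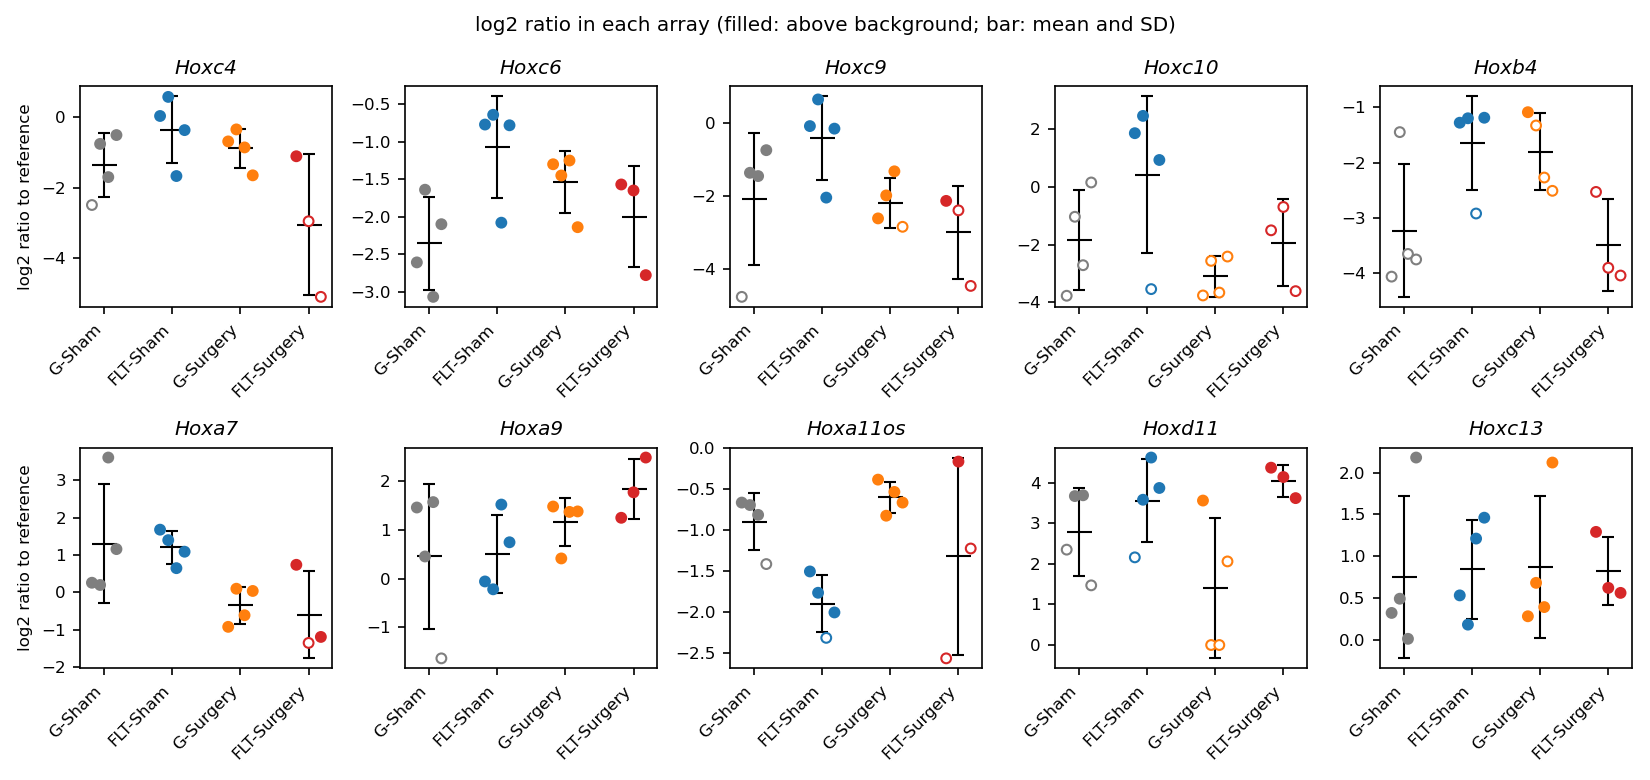
log2 ratio to the universal reference in each array for 10 Hox genes, by group (n = 4, 4, 4 and 3 arrays); filled points were well above background, open points were not, and the bars give the mean and SD. In Hoxc6 and Hoxb4, 3 FLT-Sham points lie together above the fourth, Hoxa11os shows all FLT-Sham points below all G-Sham points, and Hoxc13 overlaps in all groups.

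FLT-Surgery against G-Surgery asks what spaceflight changed in the healing defect. No Hox probe passed the cut-off, of 12 tested, against 3.14% of all 16542 probes (1.05% higher and 2.09% lower in FLT-Surgery). Only 2 of the 12 had a higher mean in FLT-Surgery and the median log2 difference was -0.48, beside 37.8% and -0.20 over all probes. At an unadjusted p of at most 0.05 there were 3, against 16.4% of all probes.

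Hoxd11, which patterns the lower leg and forearm and whose promoter window is shown above, was the Hox probe whose groups did not overlap, with FLT-Surgery higher, as in 6.02% of all probes. None lay wholly lower in FLT-Surgery, as 7.54% of all probes did. The log2 ratios of Hoxd11 were 3.56, 0, 0 and 2.06 in G-Surgery (replicates 1, 3, 4 and 5) and 4.37, 4.14 and 3.62 in FLT-Surgery (replicates 1, 3 and 5). It was above background on all 3 flight arrays and on 1 ground array. The zeros were deposited as exactly 0, with neither channel well above background, and the difference of 2.64 (SE 0.87, limma adjusted p = 0.280) was 1.23 (adjusted p = 0.331) with them left out. The Cy5 signals were 130, 11.8, 18.2 and 51.0 on the ground and 194, 175 and 180 in flight, with no overlap. Leaving out G-Surgery replicate 1 gave 3.35, which passed the cut-off (limma adjusted p = 0.324).

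Hoxc4 pointed the other way. It gave -0.69, -0.35, -0.86 and -1.65 in G-Surgery, above background on all 4 arrays, and -1.11, -2.95 and -5.09 in FLT-Surgery, above background on the first of these. The difference was -2.16 (SE 0.86, limma adjusted p = 0.291). Hoxa10, a patterning gene of the thigh chosen after its values were seen, gave 0.59, 1.38, 1.38 and -0.57 in G-Surgery and 0.14, -1.79 and -3.09 in FLT-Surgery. It was above background on 3 of 4 ground arrays and on no flight array, at least 2.61-fold higher in G-Surgery against the detection limit, with a ratio difference of -2.28 (SE 0.81, limma adjusted p = 0.281). For both genes FLT-Surgery replicate 1 was the flight array nearest the ground values. Without it Hoxc4 differed by -3.13 and Hoxa10 by -3.14, and these 2 passed the cut-off, as did 12.7% of all probes in place of 3.14%. Without FLT-Surgery replicate 5, the lowest flight array in both, Hoxc4 differed by -1.14 and Hoxa10 by -1.52. With the slide as a block Hoxa10 differed by -2.42 and passed the cut-off (limma adjusted p = 0.109), as did 7.80% of all probes. Hoxa10 entered the test through G-Surgery alone, as did Hoxc4 where FLT-Surgery replicate 1 was left out. Those differences have no measured low side and are no support for a direction. FLT-Surgery replicate 1 had the highest sum of muscle markers in its group (1769818, against 141982 and 181093). The part of muscle in the Hoxc4 and Hoxa10 differences was not tested. Of 11 tested muscle markers, all had a lower mean in FLT-Surgery (median log2 difference -1.76, 1 past the cut-off), as did 5 of 5 erythroid markers (-1.45), 7 of 7 markers of blood stem and progenitor cells (-0.64), 6 of 6 bone cell markers (-0.69) and 3 of 3 cartilage markers (-3.50, 1 past). Lower means were also found in 7 of 8 neutrophil markers (-1.42), 3 of 3 adipocyte markers (-0.68) and 2 of 3 endothelial markers (-0.66).

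Hoxa9, a regulator of blood progenitors, was above background on all 7 arrays of this comparison, with 1.47, 0.41, 1.36 and 1.37 in G-Surgery and 1.24, 1.76 and 2.47 in FLT-Surgery. The groups overlapped (difference 0.67, SE 0.41, limma adjusted p = 0.414). Its second probe differed by -0.50 (SE 0.62), in the other direction. Hoxc6 differed by -0.47 (SE 0.40), Hoxc9 by -0.81 (SE 0.64), Hoxa7 by -0.25 (SE 0.56), Hoxa11os by -0.72 (SE 0.53) and Hoxc13 by -0.04 (SE 0.49), all within overlapping groups, and for these 5 the sign turned under at least 1 other scaling.

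G-Surgery against G-Sham asks what the defect changed on the ground. No Hox probe passed the cut-off, of 14 tested, against 2.59% of all 17674 probes (2.08% higher and 0.509% lower in G-Surgery), none had an adjusted p of at most 0.05, against 0.0113% of all probes, and none reached an unadjusted p of 0.05, against 10.9% of all probes. Of the 14, 11 had a higher mean in G-Surgery (median log2 difference 0.25), beside 59.9% and 0.14 over all probes. Hoxa7, a gene of the trunk also expressed in blood progenitors, was the only Hox probe whose groups did not overlap, with G-Surgery lower, as in 1.56% of all probes, and none lay wholly higher, as 5.31% did. It gave 0.26, 0.20, 3.61 and 1.16 in G-Sham and -0.92, 0.10, -0.61 and 0.04 in G-Surgery, above background on all 8 arrays. The difference of -1.66 (SE 0.73, limma adjusted p = 0.461) drew on G-Sham replicate 4, whose Cy5 signal of 9850 compares with 825 to 1110 in the other 3 sham arrays. It was -0.89 without that array and lay between -2.03 and -1.47 without any 1 of the other 7. Hoxc6 differed by 0.82 (SE 0.37, limma adjusted p = 0.470), with -1.30, -1.45, -1.25 and -2.14 in G-Surgery. In Hoxc6 the groups overlapped through G-Surgery replicate 5. Hoxd11 differed by -1.39 (SE 0.88), but by 0.02 with the zeros left out. Hoxa9 differed by 0.70 (SE 0.68), Hoxc4 by 0.48 (SE 0.49), Hoxa11os by 0.30 (SE 0.26), Hoxc13 by 0.12 (SE 0.58) and Hoxc9 by -0.11 (SE 0.84). The sign for Hoxc13 turned under other scalings. In the same comparison 4 of 4 tested cartilage markers had a higher mean in G-Surgery (median log2 difference 2.46), and Col2a1, the collagen of cartilage, passed the cut-off, above background on all 4 G-Surgery arrays and on no G-Sham array. Higher means were also found in 6 of 8 markers of blood stem and progenitor cells (0.43), of which Cd34 passed at 1.24, 3 of 3 endothelial markers (0.85) and 4 of 8 bone cell markers (0.16). Means were lower in 7 of 11 muscle markers (-0.24), 4 of 5 erythroid markers (-0.78) and 6 of 8 neutrophil markers (-0.13), and were split evenly in 4 adipocyte markers (-0.85). Their part in the Hox values was not tested.

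FLT-Surgery against FLT-Sham asks what the defect changed in flight. No Hox probe passed the cut-off, of 16 tested, against 6.65% of all 19131 probes (0.423% higher and 6.23% lower in FLT-Surgery), and none had an adjusted p of at most 0.05, against 0.0836% of all probes. Of the 16, 6 had a higher mean in FLT-Surgery and the median log2 difference was -1.37, beside 41.5% and -0.28 over all probes. At an unadjusted p of at most 0.05 there were 8, against 24.3% of all probes, and the smallest adjusted p was 0.153. Hoxc9 was the only Hox probe whose groups did not overlap, with FLT-Surgery lower, as in 10.6% of all probes, and none lay wholly higher, as 4.06% did. It gave -2.13, -2.39 and -4.46 in FLT-Surgery, against -0.08, 0.65, -2.04 and -0.15 in FLT-Sham, a difference of -2.59 (SE 0.80, limma adjusted p = 0.153). Its nearest arrays, FLT-Surgery replicate 1 and FLT-Sham replicate 8, were 0.09 apart.

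Hoxa7 gave 0.74, -1.35 and -1.19 in FLT-Surgery, against 1.68, 1.40, 0.65 and 1.09 in FLT-Sham (difference -1.80, SE 0.58, limma adjusted p = 0.157). Only FLT-Surgery replicate 1 reached the sham range, and without it the difference was -2.48 and passed the cut-off (limma adjusted p = 0.0408). Hoxb4 gave -2.53, -3.90 and -4.04 in FLT-Surgery, none above background, a difference of -1.84 (SE 0.60, limma adjusted p = 0.158) and a signal at least 1.65-fold higher in FLT-Sham. Hoxc4 differed by -2.69 (SE 0.95, limma adjusted p = 0.167), and by -1.67 without FLT-Surgery replicate 5. Hoxa9 was higher in FLT-Surgery, by 1.33 (SE 0.54, limma adjusted p = 0.192), and its second probe gave 1.70 (SE 0.85). The other 3 probes with an unadjusted p below 0.05 were Hoxb6 (-2.0), Hoxa10 (-2.37) and Hoxa3 (-1.94), chosen here by that p, and none of the 3 was above background on any FLT-Surgery array. Without FLT-Surgery replicate 3 Hoxa3 differed by -0.98. Hoxc6 differed by -0.93 (SE 0.52), Hoxa11os by 0.58 (SE 0.58), Hoxd11 by 0.49 (SE 0.59) and Hoxc13 by -0.02 (SE 0.44), each within overlapping groups. The sign of Hoxc13 turned under other scalings and that of Hoxc6 with normexp.

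Without FLT-Sham replicate 8, Hoxb4 (-2.26), Hoxb6 (-2.60), Hoxc9 (-3.14), Hoxc10 (-3.70) and Hoxa9 (1.67) passed the cut-off with adjusted p-values (limma) of 0.0137 to 0.0342, as did 26.2% of all probes in place of 6.65%. Without FLT-Surgery replicate 1, Hoxa7, Hoxb4 and Hoxc4 did, with 13% of all probes. Hoxb4, Hoxb6 and Hoxc10 entered this comparison through FLT-Sham alone, so their differences have no measured low side and are no support for a direction. Against the detection limit, with all arrays, their signals were at least 1.65-fold, 2.87-fold and 2.71-fold higher in FLT-Sham. The other values without FLT-Sham replicate 8 were -1.99 for Hoxa7, -3.13 for Hoxc4, -2.82 for Hoxa10, -2.30 for Hoxa3, -1.27 for Hoxc6, 0.44 for Hoxa11os, 0.84 for Hoxd11, 0.10 for Hoxc13 and 1.64 for the second Hoxa9 probe. In this comparison 11 of 12 muscle markers had a lower mean in FLT-Surgery (median log2 difference -2.94, 4 past the cut-off), 7 of 7 adipocyte markers (-4.17, 5 past), 5 of 5 erythroid markers (-3.25, 3 past), 8 of 9 neutrophil markers (-2.53, 3 past), 6 of 7 bone cell markers (-2.06, 2 past), 4 of 6 endothelial markers (-3.44), 3 of 3 cartilage markers (-1.24) and 5 of 7 markers of blood stem and progenitor cells (-0.59). The part of these cells in the Hox differences was not tested.

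**Figure D5:**
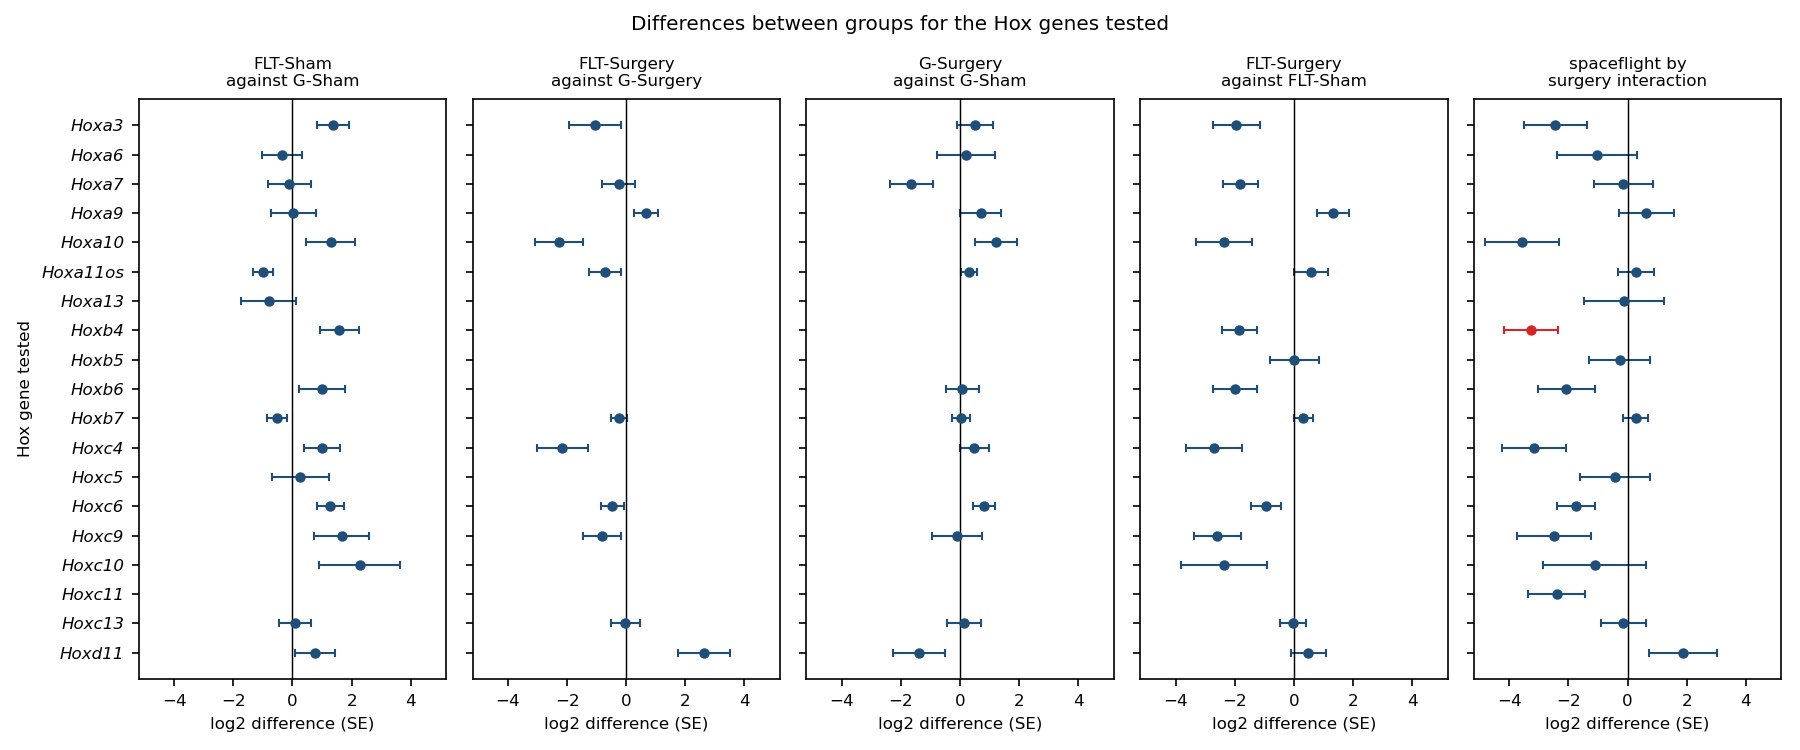
log2 difference and its SE (limma) for each of the 19 Hox genes tested in any comparison, in the 4 comparisons of pairs of groups and in the interaction; a gene without a point in a panel did not pass the filter there, and red marks the value past the cut-off. Hoxb4 in the interaction, at -3.26, is that value.

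The interaction asks whether spaceflight acted differently in the defect and in the sham femur, and is the log2 difference of FLT-Surgery over G-Surgery less that of FLT-Sham over G-Sham. Hoxb4 passed the cut-off, 1 of 20 Hox probes tested, against 5.33% of all 21773 probes of which 4.97% were below 0, as Hoxb4 was, and 0.358% above. Its interaction was -3.26 (SE 0.91, limma adjusted p = 0.171). In G-Surgery its ratios were -1.09, -1.33, -2.27 and -2.51, so the means ran higher in FLT-Sham than in G-Sham and lower in FLT-Surgery than in G-Surgery. Hoxb4 was above background on 4 of the 15 arrays only, FLT-Sham replicates 4, 6 and 9 and G-Surgery replicate 1, so the low side of both differences was not well above background. Within slides the interaction was -2.18 and -3.33. It missed the cut-off with a second loess step (-1.53) and with background correction by normexp and loess (-0.15).

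Of the 20 probes 5 had an interaction above 0, with a median of -0.73, beside 39.2% and -0.37 over all probes. At an unadjusted p of at most 0.05 there were 7, against 19.5% of all probes. The other 6, chosen here by that p, were Hoxc4 (-3.17), Hoxa10 (-3.57), Hoxc6 (-1.75), Hoxc11 (-2.39), Hoxa3 (-2.44) and Hoxb6 (-2.08), with adjusted p-values (limma) from 0.190 for Hoxc4 to 0.254 for Hoxb6. Within both slides all 6 were below 0, from -6.96 (Hoxa10) to -1.52 (Hoxc6) on the first slide and from -2.37 (Hoxa3) to -1.12 (Hoxa10) on the second. Without FLT-Sham replicate 8 the cut-off was passed by 6 Hox probes (Hoxb4 at -3.69, Hoxc4 at -3.61, Hoxc6 at -2.09, Hoxa10 at -4.03, Hoxb6 at -2.68 and Hoxc11 at -2.84) and 17.5% of all probes. Without FLT-Surgery replicate 1, 3 passed (Hoxb4, Hoxc4 and Hoxa10), with 10.3% of all probes. Without G-Sham replicate 5 the same 3 passed, without G-Sham replicate 3 Hoxb4 and Hoxc6, and without G-Surgery replicate 5 Hoxb4 and Hoxa10. Most markers of other cells lay the same way, with an interaction below 0 in 11 of 12 muscle markers (median -2.41), 7 of 7 adipocyte markers (-2.85), 5 of 5 erythroid markers (-3.28), 9 of 10 neutrophil markers (-1.81), 7 of 8 markers of blood stem and progenitor cells (-0.81), 5 of 6 endothelial markers (-4.62), 4 of 4 cartilage markers (-4.24) and 7 of 8 bone cell markers (-1.36). Their part in the Hoxb4 value was not tested. Hoxd11 stood on the other side at 1.88 (SE 1.16, limma adjusted p = 0.366), Hoxa9 at 0.64 (SE 0.94), Hoxa11os at 0.29 (SE 0.62), Hoxa7 at -0.15 (SE 1.0), Hoxc13 at -0.14 (SE 0.77) and Hoxc9 at -2.48 (SE 1.24, limma adjusted p = 0.281). Without FLT-Sham replicate 8 these were 2.23 for Hoxd11, 0.98 for Hoxa9, 0.15 for Hoxa11os, -0.33 for Hoxa7, -0.02 for Hoxc13 and -3.03 for Hoxc9, and Hoxa3 was -2.80.

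Some Hox probes were bright in a single femur. Chosen after their values were seen, Hoxd13, a gene of the digits, had a Cy5 signal of 1984 in FLT-Surgery replicate 1 and 11.2 to 26.4 on the other 14 arrays, and Hoxd10 of the same cluster had 207 in the same femur and 13.9 to 47.8 elsewhere. Of the genes that lie between them, Hoxd12 had 11.4 to 20.9 over all 15 arrays. Hoxd11 had 194 in the same femur, within its range of 11.8 to 232 over all 15 arrays. Hoxa6, of the trunk, had 1057 in G-Surgery replicate 5 and 40.5 to 236 elsewhere. In G-Sham replicate 4, Hoxb8, which acts in myeloid progenitors, had 676, next to the Hoxa7 signal of 9850. Each of these probes has 1 spot on an array, so a fault of a spot cannot be told apart from a difference between femora.

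Hox proteins bind DNA together with cofactors of the PBC and MEIS classes. Meis3 was above background on all 15 arrays, Meis1, needed by blood stem cells, on 13, Pbx2 on 12, Pbx3 and Pknox2 on 6, Meis2 on 5, Pknox1 on 4 and Pbx4 on none. No cofactor passed the cut-off in any of the 5 comparisons. Of 8 tested, 6 had a higher mean in FLT-Sham than in G-Sham (median log2 difference 0.75) and 6 a lower mean in FLT-Surgery than in FLT-Sham (-1.08), beside 0.24 and -0.28 over all probes. Of 14 genes of limb identity and limb bud patterning, Lmx1b, which sets dorsal limb identity, was above background on all 15 arrays and Tbx3 on 12. Pitx1, the hindlimb selector, reached 5 arrays, Tbx4, its hindlimb partner, none, and Tbx5, which marks the forelimb, 1. Tbx2 was above background on 3 FLT-Sham arrays alone, with Cy5 signals of 53.0 to 339 in FLT-Sham, 32.1 to 50.8 in G-Sham, 26.1 to 83.8 in G-Surgery and 24.0 to 43.9 in FLT-Surgery. It entered the tests through FLT-Sham only, so its differences have no measured low side and are not given. The interaction of Tbx3 passed the cut-off at -2.55, with 5.33% of all probes.

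Of 17 chromatin regulators of Hox clusters, from the Polycomb and Trithorax systems and their demethylases, Men1, Ezh1, Eed, Phc2 and Kdm6b were above background on all 15 arrays and Cbx7 and Cbx8 on none. None passed the cut-off between any pair of groups. In the interaction Ezh2, the Polycomb methyltransferase of dividing cells, passed at -3.18 (SE 1.0, limma adjusted p = 0.177) and its partner Eed at -1.30 (SE 0.39, limma adjusted p = 0.172), with 5.33% of all probes. Ezh2 was above background on no FLT-Surgery array and on 1 of G-Sham, while Eed was on all 15. The upstream Cdx and ParaHox genes were at the detection limit, with Cdx1 and Gsx2 seen on 1 array each and Cdx2, Cdx4, Gsx1 and Pdx1 on none. Of 15 other homeobox genes of the skeleton, Msx1, Dlx3 and Barx2 were above background on all 15 arrays. In G-Surgery against G-Sham, Prrx2, a gene of limb mesenchyme, was 1.30 higher (log2, SE 0.38, limma adjusted p = 0.337) and Barx2, which acts in muscle and cartilage, 1.47 higher (SE 0.42, limma adjusted p = 0.334), with 2.59% of all probes past the cut-off. These 2 were the members of that list past the cut-off in any comparison.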

How the data were processed

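Per the labels, femur RNA (Cy5) of 15 samples was hybridised with Universal Mouse Reference RNA (Cy3) on Agilent arrays, and the submitters' processing notes name Agilent Feature Extraction 12.0. The deposited scanner files hold processed intensity values of both channels and the log10 ratio of Cy5 over Cy3, which the software had background-subtracted and dye-normalized. The deposited ratio is exactly 0, with neither channel flagged well above background, on 15.9% to 32.3% of spots of an array, while other spots without either flag hold a ratio. The study's methods name LOWESS in GeneSpring and a cut-off of fold change 2 and p 0.01.

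The members, gene lists and tests were chosen with earlier results of these data known. Control and outlier spots were left out, spots of a probe averaged, and the deposited log10 ratio was multiplied to log2, with no second loess. The number of arrays limits the precision. Symbols came from RefSeq (GRCm38.p6) by accession. Each comparison was fitted with limma 3.58.1 (R 4.3.3, lmFit and eBayes) on its own arrays, and the interaction on all 15, after keeping probes well above background in femur RNA on 3 or more arrays. Values per array are given for genes above background on all arrays of a group or past the cut-off. A fold of at least a value compares mean log2 Cy5 signals, with the average intensity of both channels quantile-normalized between arrays. The brighter group's mean is set against the higher, on each array of the other group, of its own signal and its lowest signal well above background. The alternative with Cy5 alone was scaled to the 75th percentile of each array. The 3 slides each held arrays of several groups, except the third with G-Sham replicate 4 alone. Groups and replicate numbers came from the labels, and p-values measure the spread between these samples. The tests were checked on simulated data. Alternatives were a second loess, normexp (offset 50, on median signals, which the scanner files hold), median centring, Cy5 alone, the filters, all 15 arrays, slide or replicate number as a block, array weights, the series value table, left-out arrays and, chosen after seeing the data, ratios of 0 as missing. Hox probe and protein sequences were not used here. Some genes of the lists are not reported here.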

Additional observations from a re-analysis of the deposited data

Results flagged for a closer look

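Within groups of 4 arrays, 63 combinations were examined, each of a group with a Hox probe or with the count of Hox probes above background. In 7 of them, all of a Hox probe, an array lay far from its other 3, where chance gives about 1 in 20, or 3.15. In G-Surgery, Hoxa9 was 0.41 in replicate 3 (others 1.36 to 1.47), its dimmer probe 0.27 in replicate 4 (others 1.88 to 2.07), so that the probes of this gene set different arrays apart, and Hoxc11 was -0.80 in replicate 5 (others 0.72 to 0.93). In G-Sham, Hoxb4 was -1.45 in replicate 3 (others -4.06 to -3.65) and Hoxb5 -2.24 in replicate 1 (others -1.40 to -1.30). In FLT-Sham, replicate 8 was apart for Hoxb4, at -2.92 (others -1.28 to -1.19), and for Hoxc6, at -2.08 (others -0.78 to -0.64), all as log2 ratios to the reference. This array also had the lowest sums of muscle, adipocyte and erythroid markers and the fewest probes above background of its group, whose part was not tested. The measured effect of spaceflight on Hoxb4 differed between surgery and sham by -3.26 on the log2 scale (limma interaction, adjusted p = 0.171). It was the 1 of 20 Hox probes past the cut-off, beside 5.33% of all probes, and missed it with a second loess and with normexp. Hoxb4 was above background on no G-Sham and no FLT-Surgery array, so the low side of both effects was not measured.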

How the results depend on the processing

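The number of Hox probes past the cut-off in FLT-Sham against G-Sham, 0, became 1 with a second loess (Hoxa9 dimmer probe, -2.30), 1 with no filter on dim probes (Hoxa11os), 1 with all 15 arrays in the fit (Hoxc6) and 5 with array weights, where 19.5% of all probes passed, and lay between 0 and 3 without 1 array. In FLT-Surgery against G-Surgery, 0 became 1 with a second loess (Hoxa9, 1.70), 1 with Cy5 alone (Hoxd11), 1 with all 15 arrays (Hoxd11), 1 with the slide as a block (Hoxa10, -2.42) and 2 with weights (10.3% of all probes), and lay between 0 and 2 without 1 array. In FLT-Surgery against FLT-Sham, 0 became 1 with all 15 arrays (Hoxc4) and 10 with weights (44.5% of all probes), and lay between 0 and 5. In the interaction, 1 became 0 with a second loess and 0 with normexp, 2 with Cy5 alone (Hoxb4 and Hoxd11) and 7 with weights (26.2% of all probes), and lay between 1 and 6. With the test kept to probes that both channels measured on all arrays, the 1 was Hoxc6 in place of Hoxb4, which that filter removes. In G-Surgery against G-Sham it was 0 under every alternative and every left-out array. The 15 arrays leave differences of low probes within the noise of the background. Signs turned as follows, the cause not tested. In FLT-Sham against G-Sham, Hoxa9 was -0.85 (second loess), -0.16 (normexp), -0.03 (median centred), -0.25 (Cy5 alone), -0.53 (weights) and -0.76 (mean of its probes), Hoxc13 -0.50, -0.18, -0.29 and -0.01 (second loess, normexp, Cy5 alone, weights) and -0.20 (slide block), Hoxd11 -0.37 (Cy5 alone) and -0.04 (weights) and Hoxa7 0.67 (slide block). In FLT-Surgery against G-Surgery, a second loess gave 0.53 for Hoxa7, 0.88 for Hoxc13, 0.01 for Hoxc6 and 0.05 for Hoxa11os, normexp 0.12 for Hoxa7, 0.22 for Hoxc6 and 0.16 for Hoxc9, and Cy5 alone 0.11 for Hoxc13. In G-Surgery against G-Sham, Hoxc13 was -0.23 (second loess), -0.22 (normexp) and -0.03 (slide block), and Hoxd11 0.02 (zeros missing). In FLT-Surgery against FLT-Sham, Hoxc13 was 1.15, 0.02, 0.43, 0.21 and 0.10 (second loess, median centred, Cy5 alone, slide block, weights) and Hoxc6 0.12 (normexp). Without 1 array, FLT-Sham against G-Sham ranged from -0.47 to 0.67 for Hoxa7, -0.66 to 0.40 for Hoxa9 and -0.15 to 0.57 for Hoxc13, FLT-Surgery against G-Surgery from -0.92 to 0.12 for Hoxa7 and -0.28 to 0.38 for Hoxc13, G-Surgery against G-Sham from 0.00 to 1.07 for Hoxa9, -0.30 to 0.60 for Hoxc13 and -1.0 to 0.34 for Hoxc9, and FLT-Surgery against FLT-Sham from -0.25 to 0.18 for Hoxc13. Of the other values of named genes, 555 kept their direction and side of the cut-off, 26 newly passed it, and Hoxb4's interaction missed it under 2 settings. The replicate number as a block left 0 Hox probes past the cut-off in FLT-Surgery against G-Surgery (203 of all probes in place of 519) and 0 in G-Surgery against G-Sham (389 in place of 458). Correlations of same-numbered arrays lay between -0.42 and 0.21 and between -0.12 and 0.34, so the numbers do not pair the samples. No paired analysis was possible because the groups share fewer than 2 replicate numbers in FLT-Sham against G-Sham and in FLT-Surgery against FLT-Sham.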
